A study of Mus musculus with 6 samples.

Results

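Genes of phosphate supply, pyrophosphate supply and mineral-binding matrix were examined in cultured cartilage cells labelled as Nf2-knockout and control: Alpl, Phospho1, Smpd3, Slc20a1, Slc20a2, Enpp1, Ank, Ibsp, Spp1 and Mgp. They were chosen by name for their roles, with earlier results of these data known. All 10 had a row among the 55401 genes of the deposited table. Primary mouse chondrocytes, cartilage cells put into culture, gave 6 poly(A) RNA libraries, of which the sample titles call 3 Nf2-knockout and 3 control. The series text gives the genotype as Nf2f/f, a floxed allele, for the controls and as its knockout for the others, in cultures undergoing differentiation. The names of all 6 libraries carry D7, which the labels do not spell out. The sources used here do not give how the allele was deleted, nor the strain, sex or age of the mice. The treatment label of the knockout libraries reads TCF21 overexpressing, which their titles do not mention. Whether replicates are separate animals or cultures is not labelled. A p-value therefore sets the difference between groups only against the spread of these libraries, which may in part be technical.

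Cartilage mineralizes when calcium phosphate crystals form in vesicles that chondrocytes shed and then spread along the matrix. Phosphate comes from phosphatases inside and on these vesicles and is carried across membranes by sodium-coupled transporters, while inorganic pyrophosphate, made from extracellular ATP or released from the cell, blocks crystal growth. Acidic phosphoproteins and a vitamin K-dependent protein of the matrix bind the mineral and set where and how far it grows.

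Of the 10 genes, 1 passed the test between the groups: Slc20a2, a phosphate transporter, rose in Nf2-knockout libraries. All 10 passed the filter on low counts and were tested. At an adjusted p under 0.05 by edgeR's quasi-likelihood test, 9.29% of the 18218 genes tested were called, 4.11% as higher and 5.18% as lower in Nf2-knockout, so 1 of 10 lay near the background. At an unadjusted p under 0.05, 4 of the 10 genes (Slc20a2, Phospho1, Alpl and Smpd3) stood against 24.8% of all tested genes. The groups did not overlap in CPM (counts scaled per library, with scaled library sizes) for 5 of the 10, 3 higher and 2 lower, against 32.9% of all tested genes (15.5% higher and 17.4% lower). The median log2 fold change, always given as Nf2-knockout over control, was 0.08 for the 10 and −0.01 for all tested genes. DESeq2 called 4 of the 10, with 13.3% of its 19709 genes called, adding Alpl, Phospho1 and Smpd3.

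**Figure D1:**
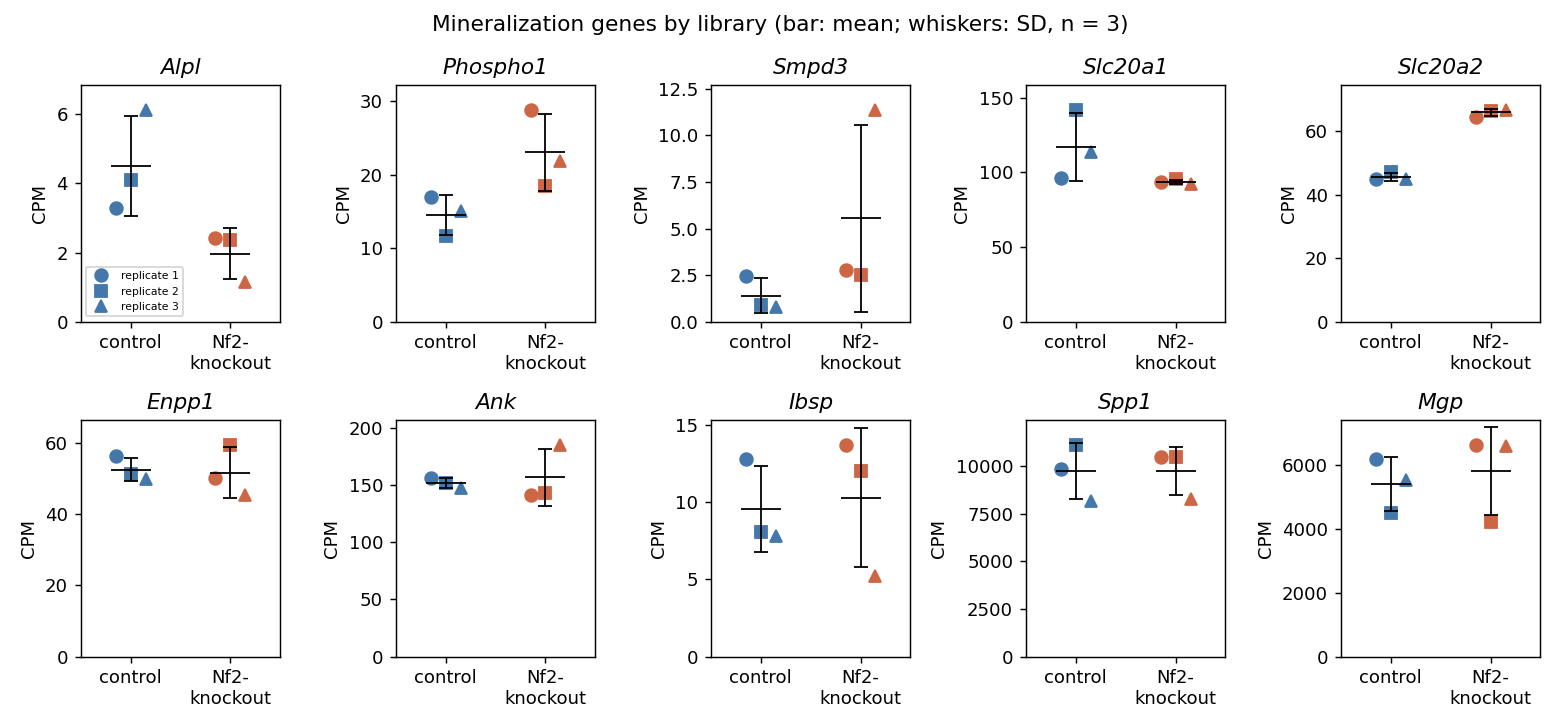
Each panel shows 1 gene, with its CPM on the y axis (from 0) and the groups on the x axis; points are single libraries, shaped by replicate number, and bars and whiskers are mean and SD of 3 libraries. Slc20a2 is the panel in which the groups are far apart relative to their spread, at 44.8 to 47.0 CPM in control against 64.5 to 66.5 CPM in Nf2-knockout.

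Library totals ran from 50906043 to 63748798 counts. Nf2 stood at 122 to 133 CPM in control against 87.9 to 100.6 CPM in Nf2-knockout libraries (log2 fold change −0.41, adjusted p = 0.0305 by edgeR), so its RNA was lower but present. Its call was lost without any 1 of the 6 libraries (adjusted p from 0.0518 to 0.123), in the fits on FPKM and with a replicate block (adjusted p = 0.0695 by edgeR). Tcf21 had 2 counts in 1 Nf2-knockout library and 0 in the other 5 libraries. Among markers of cell types, chondrocyte genes were present in every library (sums over 10 genes of 599 to 854 CPM in control against 697 to 1450 CPM in Nf2-knockout). Of these 10, Col2a1, a cartilage collagen, rose from 231 ± 50.7 to 581 ± 223 CPM (SD, n = 3, adjusted p = 0.0446 by edgeR), and the list's median log2 fold change was −0.10. Ihh, from the list of hypertrophic chondrocyte markers, did not pass the filter on low counts. Col10a1, from the same list, rose from 3.25 ± 0.733 to 16.6 ± 3.48 CPM (SD, n = 3, adjusted p = 0.00417 by edgeR). The 5 hypertrophic markers summed to 8423 to 11867 CPM in control libraries and to 831 to 2917 CPM in the knockouts. Most of the sum in each library was Mmp13, which fell from 10273 ± 1748 to 1773 ± 1054 CPM (adjusted p = 0.0169 by edgeR). Runx2 and Mef2c stood at log2 fold changes of −0.60 and −0.43 and did not pass (adjusted p = 0.229 and 0.754 by edgeR). The median log2 fold change of the tested hypertrophic markers was −0.51. Of 7 osteoblast markers 5 were tested; edgeR called 0, although Dmp1 alone had an unadjusted p under 0.05, and Sost was at 0 in all libraries. The 12 macrophage markers summed to 152 to 414 CPM in control against 42.6 to 104 CPM in Nf2-knockout libraries, and 5 of them fell. Of 7 pericyte and smooth muscle markers 2 rose, with sums of 59.1 to 98.0 and 134 to 160 CPM. Osteoclast markers summed to 1024 to 1370 and 1053 to 1521 CPM, most of it Ctsk, with Dcstamp and Calcr at 0 in all libraries. Of 4 tested osteoclast markers 1 fell, Atp6v0d2, from 16.0 ± 2.59 to 5.10 ± 1.44 CPM (adjusted p = 0.0102 by edgeR). Endothelial markers summed to 2.04 to 4.91 and 4.67 to 9.12 CPM, and 1 of 5 tested, Kdr, rose from 1.75 ± 0.286 to 4.49 ± 0.766 CPM (adjusted p = 0.0196 by edgeR). Of 6 fibroblast markers 1 rose and 1 fell, with sums of 1412 to 1478 and 635 to 924 CPM. Their part in the results on the 10 genes was not tested. In such bulk samples, a change in the share of a cell type and a change of RNA per cell cannot be told apart.

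Levels can be compared between genes only per transcript length, and on that scale the 10 genes covered a very wide range. The secreted matrix genes stood far above the rest, with a mean over the 6 libraries of 5317 FPKM (fragments scaled by transcript length and library size, from the authors) for Spp1 and 4266 FPKM for Mgp. Spp1 ranked 7 and Mgp 9 among the 16650 protein-coding genes with a count. Spp1 took 0.783% to 1.08% of all counts of a library and Mgp 0.434% to 0.692%. The pyrophosphate exporter Ank followed at 38.4 FPKM, 111-fold below Mgp. Next came the transporter Slc20a1 at 16.9 FPKM, the phosphatase Phospho1 at 8.39 FPKM and the transporter Slc20a2 at 8.11 FPKM. Enpp1, which makes pyrophosphate, stood at 4.57 FPKM and the matrix gene Ibsp at 4.32 FPKM. The phosphatase Alpl, at 0.710 FPKM, and the sphingomyelinase Smpd3, at 0.611 FPKM, were lowest. Over the 6 libraries the ranges of neighbours overlapped for Spp1 and Mgp, for Phospho1 and Slc20a2, for Enpp1 and Ibsp, and for Alpl and Smpd3, so the order within those pairs did not exceed the spread. The ranges of the other neighbours in the order did not overlap. Beyond neighbours, the lowest Phospho1 value, 4.98 FPKM, lay below the highest of Enpp1, 5.37 FPKM, and of Ibsp, 6.14 FPKM. Alpl, whose enzyme is the usual histochemical marker of mineralizing cells, thus lay at the 33.4th percentile of detected protein-coding genes in these cultures, against the 74.0th for Phospho1. The Phospho1 level is uncertain, as 1818 of its 2029 exonic bases are shared with Zfp652 on the same strand.

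**Figure D2:**
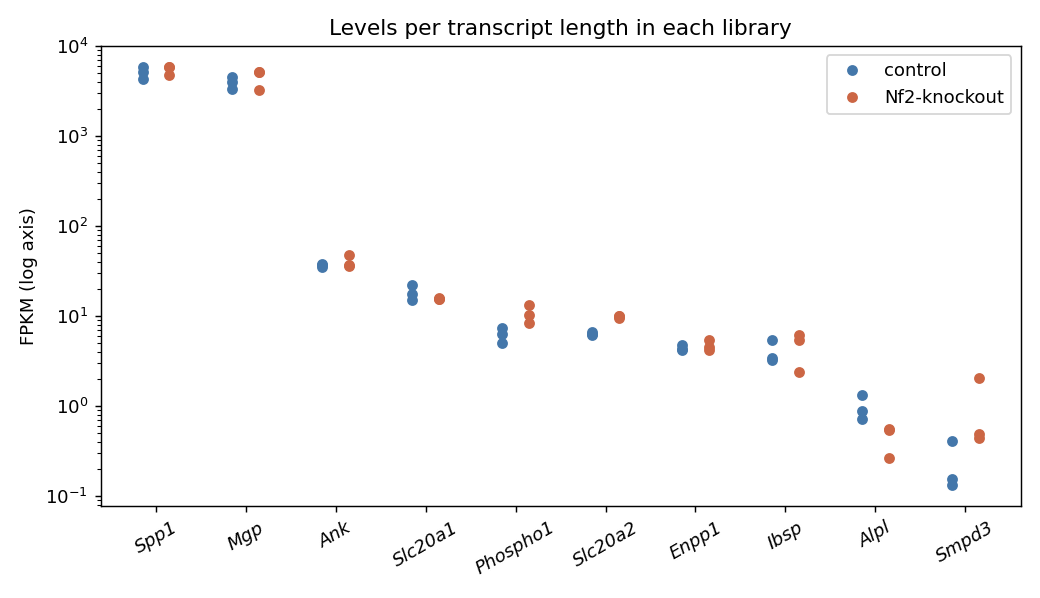
FPKM on a log axis (y) for each of the 10 genes (x, ordered by mean), with 1 point per library, blue for control and orange for Nf2-knockout. By mean over the 6 libraries, Spp1 and Mgp lie 111-fold or more above the next gene. Alpl and Smpd3 lie around or under 1 FPKM in most libraries.

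The 2 sodium-dependent phosphate transporters of the Slc20 family, known as PiT-1 and PiT-2, bring phosphate into the cell. Slc20a2, which encodes PiT-2 (ENSMUSG00000037656, chromosome 8, 22476788 to 22569612, plus strand, GRCm38), had 44.8, 47.0 and 44.9 CPM in control replicates 1 to 3 and 64.5, 66.4 and 66.5 CPM in Nf2-knockout replicates 1 to 3. Every knockout library was above every control library, and the libraries within a group lay within a factor of 1.05 of each other. The mean rose from 45.6 ± 1.26 to 65.8 ± 1.10 CPM (SD, n = 3), which is 1.44-fold (95% interval 1.27 to 1.64; log2 fold change 0.53, SE 0.0794, adjusted p = 0.0107 by edgeR). The call held in each of the 6 fits without 1 library (log2 fold changes from 0.52 to 0.56, adjusted p from 0.0313 to 0.0451 by edgeR) and in the 8 other fits tried, in which the largest adjusted p was 0.0427. Of its 6216 exonic bases, 95 are shared with the antisense gene Smim19. On FPKM, Slc20a2 stood at 6.36 ± 0.188 in control and 9.86 ± 0.230 in Nf2-knockout libraries (n = 3).

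The genes whose profile over the 6 libraries was closest to that of Slc20a2, among 12092 tested genes of at least 1 FPKM, were Prdx6, which encodes a peroxiredoxin, and Capn5, which encodes a calpain protease. The root-mean-square difference of centred log2 CPM was 0.0313 for Prdx6 and 0.0432 for Capn5. These distances are a description over 6 libraries.

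Slc20a1, which encodes PiT-1 (ENSMUSG00000027397, chromosome 2, 129198764 to 129211616, plus strand), had 96.1, 141 and 113 CPM in control against 93.4, 95.2 and 92.3 CPM in Nf2-knockout replicates 1 to 3. The knockout libraries lay just under the lowest control on this scale, whereas in FPKM they overlapped the controls, with 15.02 in control replicate 1 and 15.5 to 15.8 in Nf2-knockout. The value of −0.32 on the log2 scale (SE 0.140, adjusted p = 0.214 by edgeR) did not pass, with a 95% interval of the fold from 0.637 to 1.01. Without control replicate 2, the highest library, it was −0.16. Within a library, the ratio of Slc20a1 to Slc20a2 in FPKM was 2.39, 3.35 and 2.81 in control and 1.61, 1.60 and 1.55 in Nf2-knockout replicates 1 to 3. In every library Slc20a1 was thus the more abundant of the pair, and every knockout ratio was below every control ratio, at 1.59 ± 0.0343 against 2.85 ± 0.482 (SD, n = 3). The FPKM ranges of both genes already fixed that this ratio could not overlap, so it adds no separate result. The difference between the responses of both transporters was not tested.

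**Figure D3:**
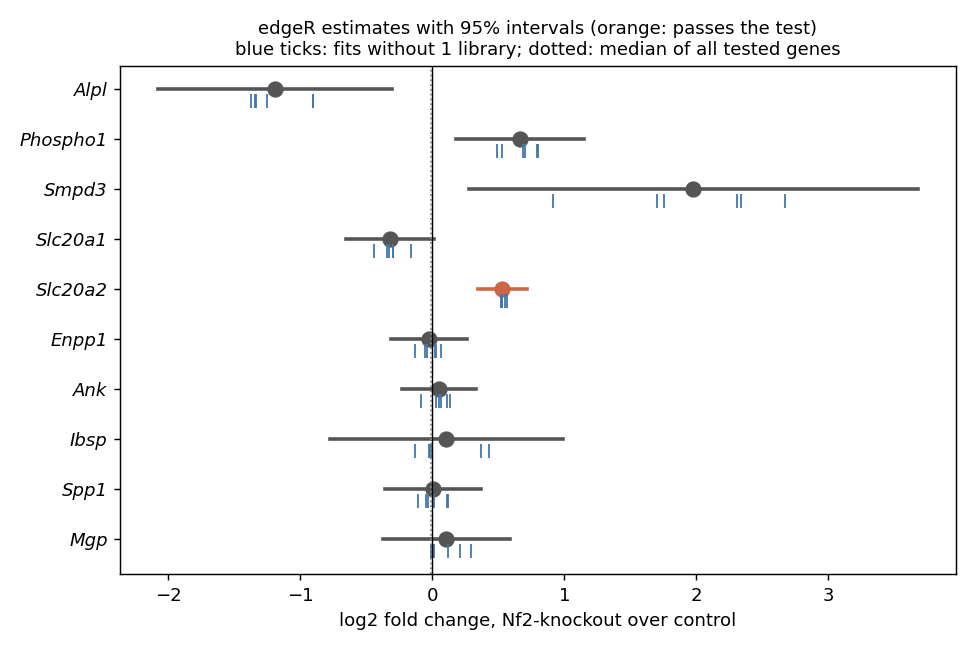
The log2 fold change of each gene (x, Nf2-knockout over control) with its 95% interval from edgeR; blue ticks below are the estimates without 1 library, and the dotted line is the median of all tested genes. Slc20a2, in orange, passes the test with estimates of 0.52 to 0.56 without 1 library, while the ticks of Smpd3 spread from 0.91 to 2.67.

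The phosphatases that supply phosphate stood in opposite directions, and neither passed the edgeR test. Alpl encodes tissue-nonspecific alkaline phosphatase, which cleaves pyrophosphate and other phosphate esters at the vesicle surface (ENSMUSG00000028766, chromosome 4, 137741733 to 137796384, minus strand). It had 195, 221 and 349 counts in control and 126, 150 and 76 counts in Nf2-knockout replicates 1 to 3, or 3.29, 4.10 and 6.11 against 2.41, 2.38 and 1.14 CPM. The groups did not overlap, with the highest value in control replicate 3 and the lowest in Nf2-knockout replicate 3. The means were 4.50 ± 1.45 CPM in control against 1.98 ± 0.726 CPM in Nf2-knockout (n = 3), a log2 value of −1.19 (SE 0.377, adjusted p = 0.102 by edgeR; adjusted p = 0.0289 by DESeq2). Without 1 library the estimate lay between −1.37 and −0.90, and edgeR called it in 0 of those 6 fits (adjusted p from 0.111 to 0.228).

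Phospho1 encodes a phosphatase that acts on phosphocholine and phosphoethanolamine inside matrix vesicles (ENSMUSG00000050860, chromosome 11, 95824499 to 95832140, plus strand). It had 16.9, 11.6 and 15.01 CPM in control against 28.8, 18.5 and 21.9 CPM in Nf2-knockout replicates 1 to 3. Each knockout library stood above each control, the nearest being Nf2-knockout replicate 2 and control replicate 1. The means were 14.5 ± 2.69 and 23.1 ± 5.22 CPM (n = 3), a log2 fold change of 0.67 (SE 0.207, adjusted p = 0.0974 by edgeR; adjusted p = 0.0262 by DESeq2). The annotation places 1818 of its 2029 exonic bases also in an exon of Zfp652 on the same strand and 1708 in exons of Abi3 on the other strand, so its counts are uncertain where reads could be assigned to either gene. Zfp652 stood at 31.5 ± 2.74 CPM in control against 29.6 ± 6.08 CPM in Nf2-knockout (adjusted p = 0.793 by edgeR), and Abi3 at 0.799 ± 0.979 and 0.831 ± 0.924 CPM (adjusted p = 0.989 by edgeR).

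The ratio of Phospho1 to Alpl in FPKM was 10.2, 5.64 and 4.88 in control and 23.8, 15.5 and 38.5 in Nf2-knockout replicates 1 to 3. The lowest knockout ratio was above the highest control ratio, with means of 6.92 ± 2.90 and 25.9 ± 11.6 (n = 3). In FPKM, Phospho1 was higher and Alpl lower without overlap, so their ratio could not overlap and adds no separate result. It was not among the ratios planned. Relative to Enpp1, the enzyme that makes the pyrophosphate that the Alpl product removes, Alpl stood at 0.149, 0.203 and 0.311 in control and 0.122, 0.101 and 0.0633 in Nf2-knockout. That ratio too was lower in each knockout library. The ratio of Alpl to Ank was 0.0189, 0.0242 and 0.0372 in control and 0.0152, 0.0148 and 0.00548 in Nf2-knockout, again without overlap. These ratios were described and not tested, and they share the Alpl values. The FPKM ranges of Alpl, Enpp1 and Ank already fixed that the ratios to Enpp1 and Ank could not overlap. They too add no separate result.

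**Figure D4:**
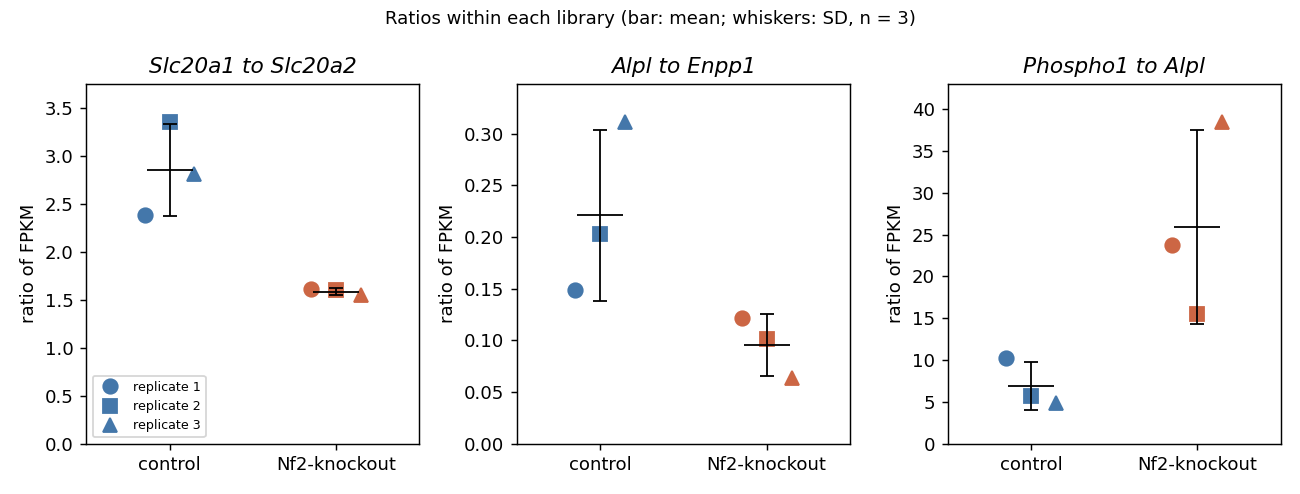
Ratios of FPKM within each library (y, from 0) for 3 pairs of genes, by group (x); points are libraries shaped by replicate number, bars and whiskers mean and SD of 3 libraries. The groups do not overlap in any of these 3 panels, and the ratio of Slc20a1 to Slc20a2 lies between 1.55 and 1.61 in Nf2-knockout and between 2.39 and 3.35 in control. For Phospho1 to Alpl this was fixed, as Phospho1 was higher and Alpl lower in FPKM without overlap. The FPKM ranges of the single genes also fixed it for the other panels, so no ratio adds a separate result.

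To show the sequence at the start of these phosphatase genes, and of the matrix genes Ibsp and Spp1, which lie in 1 cluster and stand at very different levels, the 250 bases upstream of a transcription start are printed from RefSeq (GRCm38.p6), read 5′ to 3′ on the strand of the gene. Capitals mark matches on either strand to 6 motifs, where neighbouring matches can overlap. The TEAD motif was searched as GGAATG and the RUNX motif as TGTGGT. The letters of the GC box were GGGCGG and those of the TATA box TATAAA. The cyclic AMP response element (CRE) was searched as TGACGTCA and the AP-1 motif as TGANTCA. The windows are chr11:95824250-95824499 (plus strand) for Phospho1, chr4:137796385-137796634 (minus strand) for Alpl, chr5:104299037-104299286 (plus strand) for Ibsp and chr5:104434861-104435110 (plus strand) for Spp1.
Phospho1: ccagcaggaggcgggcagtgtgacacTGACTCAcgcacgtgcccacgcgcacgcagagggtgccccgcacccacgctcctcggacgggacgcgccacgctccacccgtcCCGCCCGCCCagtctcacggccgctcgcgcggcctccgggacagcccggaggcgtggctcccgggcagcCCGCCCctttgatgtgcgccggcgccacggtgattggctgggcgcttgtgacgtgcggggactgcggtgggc
Alpl: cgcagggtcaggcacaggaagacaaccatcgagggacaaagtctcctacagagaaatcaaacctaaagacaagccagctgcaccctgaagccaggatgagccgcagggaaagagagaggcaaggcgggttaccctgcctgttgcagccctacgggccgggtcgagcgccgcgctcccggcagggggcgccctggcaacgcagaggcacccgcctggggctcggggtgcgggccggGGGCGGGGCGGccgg
Ibsp: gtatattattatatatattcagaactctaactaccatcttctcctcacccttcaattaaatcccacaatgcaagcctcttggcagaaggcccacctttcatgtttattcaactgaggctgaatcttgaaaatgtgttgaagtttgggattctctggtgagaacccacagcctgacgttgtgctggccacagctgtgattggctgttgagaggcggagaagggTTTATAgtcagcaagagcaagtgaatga
Spp1: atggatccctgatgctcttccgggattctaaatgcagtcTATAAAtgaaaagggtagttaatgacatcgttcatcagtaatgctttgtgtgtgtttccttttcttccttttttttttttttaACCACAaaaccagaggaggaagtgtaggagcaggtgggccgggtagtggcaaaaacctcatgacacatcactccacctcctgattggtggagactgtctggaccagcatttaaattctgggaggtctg
The Phospho1 window held 34 CpG pairs at 75.6% G and C, with GC box matches at −141, −137 and −72 and an AP-1 match at −224 from the start. The Alpl window held 20 CpG pairs at 68.4% G and C, with overlapping GC box matches at −15 and −10. The windows of Ibsp and Spp1 held 2 and 3 CpG pairs, both at 43.6% G and C. Ibsp had a TATA match in reverse orientation at −28, and Spp1 had a RUNX match at −128 and a TATA match at −211. Other starts of these genes differ: the window of a second Alpl start held 4 CpG pairs at 56.0% G and C with a TATA match and no GC box, and that of a second Spp1 start, at 35.6% G and C, held none of the motifs.

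Of the 10 genes, 7 had a window in the RefSeq table, with 10 windows in all, and Slc20a2, Smpd3 and Mgp had none. A GC box was found in 6 of the 10 windows (32.7% of all 32851 windows), RUNX in 3 (14.0%), TATA in 3 (12.4%), AP-1 in 1 (6.75%), TEAD in 1 (12.6%) and CRE in 0 (1.55%). The TEAD matches, 3 copies at −230, −198 and −96, were upstream of a second start of Slc20a1 inside the gene. A match describes the letters of the window and says nothing of binding.

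Smpd3 encodes neutral sphingomyelinase 2, a membrane enzyme that releases phosphocholine from sphingomyelin and is needed for normal skeletal mineralization (ENSMUSG00000031906, chromosome 8, 106252548 to 106337988, minus strand). It had 147, 50 and 46 counts in control and 146, 157 and 757 counts in Nf2-knockout replicates 1 to 3. On the CPM scale these were 2.48, 0.927 and 0.806 against 2.80, 2.49 and 11.3, so control replicate 1 was level with Nf2-knockout replicates 1 and 2 and Nf2-knockout replicate 3 stood apart. The fit gave a log2 fold change of 1.98 (SE 0.722, adjusted p = 0.143 by edgeR; adjusted p = 0.0131 by DESeq2), and the 95% interval of the fold ran from 1.21 to 12.8. Without Nf2-knockout replicate 3 the estimate was 0.91 (adjusted p = 0.421 by edgeR). Nf2-knockout replicate 3 also had the lowest Alpl, the lowest Ibsp and the highest Ank of the 6 libraries. Of the 5232 exonic bases of Smpd3, 247 are shared with the antisense gene Prmt7.

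For the genes of pyrophosphate supply no difference beyond the spread was found. Enpp1, which cleaves extracellular ATP into pyrophosphate (ENSMUSG00000037370, chromosome 10, 24637914 to 24712159, minus strand), had 56.2, 51.3 and 49.99 CPM in control against 50.1, 59.4 and 45.4 CPM in Nf2-knockout replicates 1 to 3. The groups overlapped, with the highest and the lowest library both in Nf2-knockout. The log2 fold change was −0.02 (SE 0.121, adjusted p = 0.933 by edgeR), positive on the FPKM scale, and the 95% interval of the fold was 0.807 to 1.20. Ank, the multipass membrane protein through which the cell releases ATP and pyrophosphate (ENSMUSG00000022265, chromosome 15, 27466677 to 27594909, plus strand), had 156, 151 and 147 CPM in control against 141, 143 and 185 CPM in Nf2-knockout. Replicates 1 and 2 of the knockout were below all controls and replicate 3 was above them. The fit put Ank at a log2 fold change of 0.05 (SE 0.119, adjusted p = 0.852 by edgeR), with a 95% interval of the fold from 0.851 to 1.25 and −0.08 without Nf2-knockout replicate 3.

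Of the mineral-binding matrix genes, likewise, none passed by edgeR, at adjusted or unadjusted p, or by DESeq2. Ibsp and Spp1 belong to a family of acidic, integrin-binding phosphoproteins that lies in 1 cluster on chromosome 5. Spp1 encodes osteopontin, which restrains crystal growth (ENSMUSG00000029304, chromosome 5, 104435118 to 104441050, plus strand), and had 9873, 11105 and 8179 CPM in control against 10482, 10491 and 8292 CPM in Nf2-knockout replicates 1 to 3. The ranges covered each other almost wholly. The estimate was a log2 fold change of 0.01 (SE 0.154, adjusted p = 0.989 by edgeR), and the 95% interval of the fold, 0.780 to 1.29, bounds how large a change these libraries could hide. The annotation places 309 of its 1648 exonic bases also in Gm42793 on the same strand. Macrophages also express Spp1, and the summed macrophage markers were lower in the Nf2-knockout libraries without overlap, at the values given above; the part of these cells in the Spp1 level was not tested.

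Ibsp encodes bone sialoprotein, which can seed crystals (ENSMUSG00000029306, chromosome 5, 104299171 to 104311469, plus strand), and lies 123648 bases from Spp1. It had 12.8, 8.09 and 7.85 CPM in control against 13.7, 12.02 and 5.19 CPM in Nf2-knockout replicates 1 to 3. Knockout libraries were both the highest and the lowest. The fitted log2 fold change was 0.11 (SE 0.374, adjusted p = 0.899 by edgeR), with a 95% interval of the fold from 0.584 to 1.98.

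Mgp encodes matrix Gla protein, a vitamin K-dependent inhibitor of cartilage and artery calcification (ENSMUSG00000030218, chromosome 6, 136872435 to 136875823, minus strand). It had 6203, 4512 and 5529 CPM in control against 6641, 4217 and 6601 CPM in Nf2-knockout replicates 1 to 3. The groups overlapped, and replicate 2 was the lowest in both. The log2 fold change was 0.10 (SE 0.204, adjusted p = 0.805 by edgeR), with a 95% interval of the fold from 0.770 to 1.5.

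Around these genes, 36 others of phosphate and mineral metabolism were described in 4 lists, also chosen with earlier results of these data known. Of 27 tested, 2 rose and 1 fell, against 4.11% and 5.18% of all tested genes, with a median log2 fold change of 0.07. At an unadjusted p under 0.05 stood 11 of the 27, against 24.8% of all tested genes. All 3 called genes were in the list of phosphate transport and the phosphate hormone axis. Of its 9 genes 4 were tested, and all 4 had an unadjusted p under 0.05. Xpr1, the exporter that lets phosphate out of the cell, had 98.9, 90.4 and 71.5 CPM in control against 48.9, 54.8 and 51.7 CPM in Nf2-knockout replicates 1 to 3. It fell by 0.75 on the log2 scale (SE 0.132, adjusted p = 0.0181 by edgeR), and every knockout library was below every control. Its call was lost without control replicate 2, Nf2-knockout replicate 1 or Nf2-knockout replicate 3 (adjusted p up to 0.0805), with estimates from −0.87 to −0.64 without 1 library. The importer gene Slc20a2 was higher and the exporter gene Xpr1 lower in the knockout libraries. Slc20a1, the more abundant importer gene, went the other way, at a log2 fold change of −0.32, and did not pass (adjusted p = 0.214 by edgeR). Whether import and export genes moved together was not tested.

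Galnt3, whose enzyme glycosylates the phosphate hormone FGF23, rose from a mean of 3.81 ± 0.622 to one of 7.30 ± 0.942 CPM (log2 fold change 0.94, adjusted p = 0.0344 by edgeR). Fam20c, the Golgi kinase that phosphorylates secreted proteins such as osteopontin, rose from 28.3 ± 2.15 to 39.7 ± 4.12 CPM (0.49, adjusted p = 0.0459 by edgeR). Both calls were lost without any 1 library, with adjusted p from 0.0589 to 0.106 for Galnt3 and from 0.0584 to 0.141 for Fam20c. Phex, an endopeptidase of the same axis, stood at 3.46 ± 1.31 and 1.66 ± 0.612 CPM and did not pass (adjusted p = 0.174 by edgeR). Fgf23 and the phosphate transporter genes Slc34a2 and Slc34a3 had 0 counts in all libraries, Slc34a1 had 3 counts in 1 library and Kl 4 counts in 1 library. A count of 0 allows up to 3 counts, at most 0.0589 CPM in the shallowest library, for counting error only.

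In the other 3 lists edgeR called 0 genes, and over all 4 lists DESeq2 called 5, against 13.3% of all the genes it tested. Of 6 tested genes of pyrophosphate and extracellular nucleotide metabolism (median 0.29), 3 had an unadjusted p under 0.05. Their most abundant members were the pyrophosphatase genes Ppa1, at 44.2 ± 0.824 and 52.01 ± 1.95 CPM (adjusted p = 0.133 by edgeR), and Ppa2, at 28.2 ± 2.64 and 24.3 ± 2.04 CPM (adjusted p = 0.307 by edgeR). All 9 genes of phosphocholine and sphingomyelin supply were tested (median −0.24, 2 at an unadjusted p under 0.05). Among them the lysosomal sphingomyelinase gene Smpd1 stood at 134 ± 9.48 and 124 ± 6.17 CPM, and the choline transporter gene Slc44a1 at 66.7 ± 8.61 and 54.9 ± 5.50 CPM.

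Of 11 mineral-binding matrix proteins and Gla protein enzymes, 8 were tested (median 0.23, 2 at an unadjusted p under 0.05). Sparc, a collagen- and calcium-binding protein, stood at 4014 ± 746 and 4210 ± 246 CPM, and Vkorc1, which recycles the vitamin K that Mgp needs, at 106 ± 23.4 and 120 ± 2.14 CPM. Dmp1, a relative of Ibsp and Spp1 in the same cluster, was singled out after its values were seen. It had 12, 8 and 0 counts in control and 47, 53 and 84 counts in Nf2-knockout replicates 1 to 3, without overlap (log2 fold change 3.07, SE 0.968, adjusted p = 0.101 by edgeR). Its mean level of 0.184 FPKM was far below that of Ibsp. Mepe and Dspp, the other genes of that cluster, had 0 counts in all 6 libraries.

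**Figure D5:**
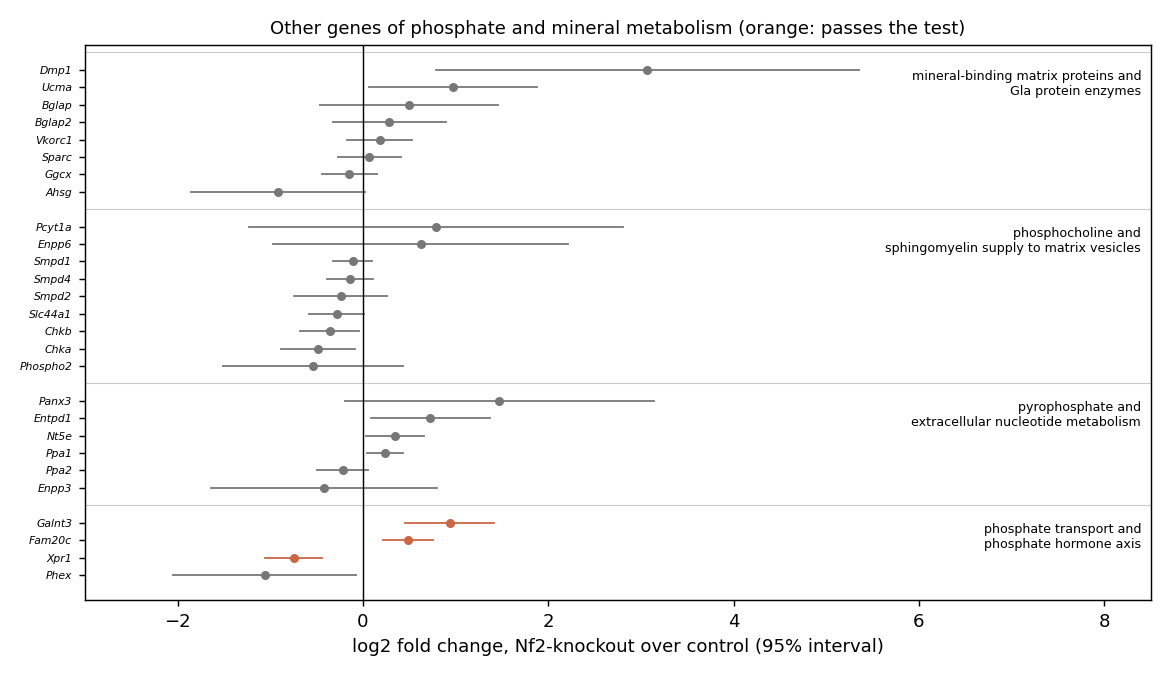
The log2 fold change of 27 tested genes in 4 lists (x, Nf2-knockout over control, with 95% intervals from edgeR; y, genes grouped by list). The orange genes, Galnt3, Fam20c and Xpr1, pass the test, at 0.94, 0.49 and −0.75.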

How the data were processed

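RNA-seq of 6 libraries, grouped by title, was analysed from the table the authors deposited. Per the submitters' processing notes, cutadapt 1.9, HISAT2 2.0.4, StringTie 1.3.4d and edgeR were used, in roles not given; build and strandedness are not given in the sources used here. Positions of all 10 genes equal GENCODE M21 (GRCm38). The deposited counts are whole numbers per gene, and how the authors made them is not stated. The deposited FPKM values were scaled by the authors to length and library size, with 0.0001 written for a count of 0.

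edgeR 4.0.16 (R 4.3.3; filterByExpr, TMM, glmQLFit, glmQLFTest, group only, prior count 0.125) tested 18218 genes, two-sided, with Benjamini-Hochberg adjustment over all and a threshold of 0.05. The SE was derived from the fold change and its F statistic, and 95% intervals from the SE, so both are approximate and unadjusted. CPM use TMM-scaled library sizes. Alternatives were DESeq2 1.42.0, its size factors, other filters, limma 3.58.1 (trend) on log2 FPKM with a pseudocount of 1 or 0.1, a replicate block and leaving out each library. The edgeR test was checked on simulated counts.

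The members and lists were chosen with earlier results of these data known. Named by rule were the 10 genes, Nf2 and Tcf21, list genes that passed, the 2 most abundant of each list that did not, cell type markers, and the 2 closest profiles to a gene that passed. Zfp652, Abi3, Smim19, Prmt7, Gm42793 and Dmp1 were added after seeing the data. The ratio of Phospho1 to Alpl was not among the ratios planned.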

Additional observations from a re-analysis of the deposited data

How the results depend on the processing

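Slc20a2 kept its call in all 14 alternatives. The number of changed genes among all tested, 1693 (749 higher, 944 lower), was 2618 with DESeq2 and 1063 with unfiltered FPKM, and ran from 629 to 1186 without 1 library (Nf2-knockout replicate 1 left out: 629; control replicate 2: 705; Nf2-knockout replicate 3: 744; control replicate 1: 973). On filtered log2(FPKM + 1), limma called 1053 higher and 615 lower, with a median of 0.07 over all genes. Of the 10 genes, 1 was called in each alternative but DESeq2, which called 4. In the 4 lists, 3 genes were called, 5 with DESeq2 and 0 to 2 without 1 library. The replicate block gave 923 changed genes, 1 list gene (lower) and Slc20a2 at adjusted p = 0.0427 by edgeR. Deviations of libraries with the same number had correlations of −0.126, 0.0195 and 0.0237, against −0.164 to 0.143 for unlike numbers. With 3 libraries per group, these correlations cannot decide whether the numbers are pairs. The titles name no pairs, so the main fit used none. Directions turned for genes near 0. Enpp1 became 0.059 on log2(FPKM + 1), filtered or not, and 0.069 with a pseudocount of 0.1, and without 1 library it ran from −0.135 to 0.069. Without 1 library Ank ran from −0.082 to 0.134, Ibsp from −0.13 to 0.43, Spp1 from −0.10 to 0.12 and Mgp from −0.012 to 0.293. The cause of these moves was not tested. Depth was not limiting for the abundant genes, but Alpl and Smpd3 rest on as few as 76 and 46 counts in a library.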
